A study of Mus musculus with 2 samples.

Results

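The chemokines *Cxcl16*, *Cxcl12* and *Cxcl13* and their receptors *Cxcr6*, *Cxcr4* and *Cxcr5* were followed through the cell types of murine cholangiocarcinoma (CCA), a cancer of the bile duct lineage. The 6 genes were taken by symbol from the 32589 genes listed in both libraries, and all 6 were detected. CCAs were induced by hydrodynamic tail vein injection (HDTVI), which delivers DNA to the liver, with NICD (the active Notch fragment) and myr-AKT (a membrane-bound active AKT kinase). Both libraries came from shYT tumors, in which a doxycycline-inducible shRNA against YAP and TAZ (*Yap1* and *Wwtr1*) was switched on through CAG-rtTA3, a driver that is active in cells of all kinds and not in tumor cells alone, from day 25 after injection. The shYT PBS group received PBS. The shYT anti–PD-1 group received an antibody against the inhibitory T cell receptor PD-1 with doses at day 26, day 29 and day 32. Tissue was collected at day 33. The labels do not give the shRNA line, sex, age or number of animals of a library. The study describes several samples per group for this experiment and used mice of both sexes, and whether a library pools animals is not given in the sources used here. There was 1 library per group, so the values describe these 2 libraries and carry no test and no p-value. Knockdown and NICD/AKT induction were shared by both groups, and their own effects were not compared.

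Chemokines are small secreted proteins that steer cells through G protein–coupled receptors. CXCL16 is made as a membrane protein that can be shed by ADAM10, and its receptor CXCR6 is a feature of liver-resident T cells, NKT cells and ILC1s. CXCL12 is a product of fibroblasts and other stroma, and its receptor CXCR4 retains neutrophils and B cell precursors in bone marrow and guides many leukocytes in tissue. CXCL13 draws CXCR5-positive B cells and follicular helper T cells into follicles and tertiary lymphoid structures.

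Levels are in CPM. UMIs (unique molecular identifiers, 1 per captured transcript) of a gene were summed over the cells of a class and divided by the UMIs of all genes there, on the usual CPM scale. Each log2 ratio is anti–PD-1 over PBS after 5 CPM were added to both, and a ratio was called when it reached 2-fold. Brackets hold 95% Poisson or exact binomial intervals, which cover counting error only and not the spread between animals. The filters kept 15531 of 19397 PBS barcodes and 16360 of 19451 anti–PD-1 barcodes, with a median of 3159 and 2990 UMIs per cell. Marker gates put 92.8% and 92.2% of them into 17 classes, of which 13 had at least 50 cells in both libraries. Markers were detected unevenly within their classes. *Clec4f* and the other Kupffer markers were in at least 82.4% of Kupffer cells of either library. By contrast, *Ly6g* was in 5.72% of PBS and 3.84% of anti–PD-1 neutrophils, and *Krt7* in 19.3% and 9.94% of tumor and biliary cells. The same markers assigned the cells, so their presence is no check of the classes. The 2 libraries stood apart in sex-linked RNA, with 18452 *Xist* and 3113 Y-linked UMIs under PBS against 11 *Xist* and 15323 Y-linked UMIs under anti–PD-1, so treatment and sex of the animals cannot be told apart for most cells. Under PBS, 1481 kept cells (9.54%) had a Y-linked UMI and no *Xist* UMI, so that library held RNA of both sexes. The 2 libraries shared 219 barcodes, 145 of them kept in both. For a list of 14 dissociation stress genes the median log2 ratio was above 0 in each of the 13 classes, from 0.31 to 2.28. In tumor and biliary cells the targeted genes stood at 9.70 and 11.2 CPM for *Yap1* and at 12.1 and 6.95 for *Wwtr1*, with no library without shRNA to set them against.

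The 6 genes lie on 5 chromosomes of GRCm38. *Cxcl16* (ENSMUSG00000018920) lies at chr11:70453983-70459984 on the reverse strand, where its first 552 bases overlap *Zmynd15* on the opposite strand. *Cxcr6* (ENSMUSG00000048521) lies at chr9:123806475-123811760 on the forward strand, wholly inside *Fyco1*, which is read in the other direction. *Cxcr5* (ENSMUSG00000047880) lies at chr9:44511787-44561877 on the reverse strand and overlaps *Bcl9l* by 110 bases. How strand was used in counting is not given in the sources used here, so UMIs from these overlaps could belong to either gene. *Cxcl12* (ENSMUSG00000061353, chr6:117168535-117181367, forward), *Cxcr4* (ENSMUSG00000045382, chr1:128588199-128592293, reverse) and *Cxcl13* (ENSMUSG00000023078, chr5:95956951-95961068, forward) overlap no other annotated gene.

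Promoters are shown for *Cxcr4* and *Cxcl13*, the members whose ratio passed 2-fold in 3 or more classes. RefSeq sequences of the 250 bases before the start (GRCm38.p6) were matched for 4 of the 6 members. *Cxcr4* is read from the reverse strand (chr1:128592300-128592549) and *Cxcl13* from the forward strand (chr5:95956689-95956938), each 5′ to 3′, with capitals for GC boxes (GGGCGG on either strand) and TATA boxes (TATAAA on either strand).
Cxcr4: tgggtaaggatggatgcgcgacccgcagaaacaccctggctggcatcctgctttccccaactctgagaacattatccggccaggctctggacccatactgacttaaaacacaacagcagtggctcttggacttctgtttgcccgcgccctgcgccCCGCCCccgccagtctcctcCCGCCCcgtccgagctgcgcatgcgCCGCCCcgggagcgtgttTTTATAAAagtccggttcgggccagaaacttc
Cxcl13: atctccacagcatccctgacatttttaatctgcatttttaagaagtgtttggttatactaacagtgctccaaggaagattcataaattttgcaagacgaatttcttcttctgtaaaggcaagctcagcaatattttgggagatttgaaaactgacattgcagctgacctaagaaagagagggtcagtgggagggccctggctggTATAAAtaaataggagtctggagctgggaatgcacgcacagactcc
The *Cxcr4* window held 3 GC boxes, which begin 95, 75 and 50 bases before the start, and overlapping TATA boxes on the 2 strands at 32 and 30 bases. Of 32851 promoters of the same length, 32.7% held a GC box and 12.4% a TATA box. The *Cxcl13* window held a single TATA box at 46 bases. No window of the 4 matched members held the letters TGACTCA (AP-1, in 4.46% of promoters) or TGACGTCA (CRE, 1.55%), or the NF-kB (0.140%) or ISRE (2.98%) consensus, on either strand.

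Over all cells, *Cxcr4*, *Cxcl13* and *Cxcr5* stood higher in the anti–PD-1 library, and *Cxcl16* and *Cxcl12* lower. *Cxcr4* stood at 97.6 CPM under PBS and 227 under anti–PD-1, a log2 ratio of 1.18 [1.14 to 1.22]. *Cxcr5* stood at 8.24 and 22.2 (1.04 [0.95 to 1.13]) and *Cxcl13* at 51.0 and 106 (0.99 [0.94 to 1.04]). These 2 receptors were the members past 2-fold, 2 of 6, against 3.57% of the 18606 genes tested. Over 11 alternatives each, the lowest ratio was 0.93 for *Cxcr4* and 0.77 for *Cxcr5*, so neither call held in all. *Cxcl12* stood at 23.3 and 10.2 (-0.90 [-0.98 to -0.81]), and *Cxcl16* at 330 and 233 (-0.50 [-0.52 to -0.47]). *Cxcr6* stood at 64.0 and 75.9 (0.23 [0.18 to 0.28]). The directions of 2 of these ratios depended on the cells or depth used, with 0.47 for *Cxcl12* without cells that held 2 or more markers of an unrelated class, and -0.25 for *Cxcr6* after thinning to 1000 UMIs per cell.

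These totals depend on the share of each class and on the level inside it. A class could itself hold different cells in the 2 libraries, which fixed class shares do not account for. The share of monocytes and macrophages was 26.1% under PBS and 15.2% under anti–PD-1, that of CAFs (cancer-associated fibroblasts) 2.81% and 1.01%, that of neutrophils 8.44% and 19.7%, and that of B cells 6.70% and 10.9%. When each class kept its PBS share of UMIs, the log2 ratio of *Cxcl12* was -0.17 and that of *Cxcl16* was -0.09. When instead each class kept its PBS level and the shares changed, they were -0.76 and -0.39. *Cxcr4* went the other way, with 0.89 at fixed shares and 0.32 at fixed levels. *Cxcr6* changed sign between the settings, from -0.20 at fixed shares to 0.49 at fixed levels. For *Cxcr5* the values were 0.38 and 0.74, and for *Cxcl13* 0.80 and 0.39. The shares are those of the cells recovered after dissociation.

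**Figure D1:**
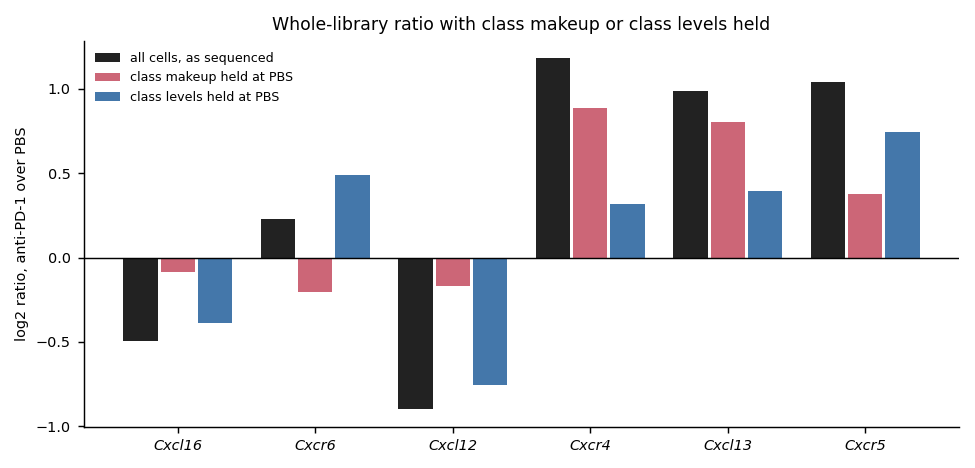
Log2 ratio of each gene over all cells (anti–PD-1 over PBS), as sequenced (black), with every class held at its PBS share of UMIs (red) and with every class held at its PBS level (blue); bars start at 0 and there is 1 library per group. The ratios of Cxcl16 and Cxcl12 are near 0 at fixed shares (-0.09 and -0.17), whereas that of Cxcr4 is 0.89.

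Each gene had its own leading classes among the 13 with at least 50 cells in both libraries. *Cxcl16* was led by mature dendritic cells, then monocytes and macrophages and then Kupffer cells (the resident macrophages of the liver), in both libraries and with no overlap of intervals. Conventional dendritic cells and endothelial cells followed, and these neighbors overlapped. T cells and the NK/ILC1 class led *Cxcr6*, overlapping each other in both libraries. CAFs led *Cxcl12* without overlap. Neutrophils and B cells led *Cxcr4*, overlapping under PBS and not under anti–PD-1. Basophils and mast cells, below the limit of 50 cells, had 431 CPM [300.4 to 600] from 35 UMIs in 25 PBS cells and 240 [155 to 354] from 25 UMIs in 19 anti–PD-1 cells. B cells led *Cxcr5* without overlap, followed by mature dendritic cells. *Cxcl13* was led by CAFs and then Kupffer cells under PBS, and by Kupffer cells and then monocytes and macrophages under anti–PD-1. The first place of CAFs rested on 1 cell, without which, and without the highest Kupffer cell, PBS CAFs stood at 63.7 CPM and Kupffer cells at 279.

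**Figure D2:**
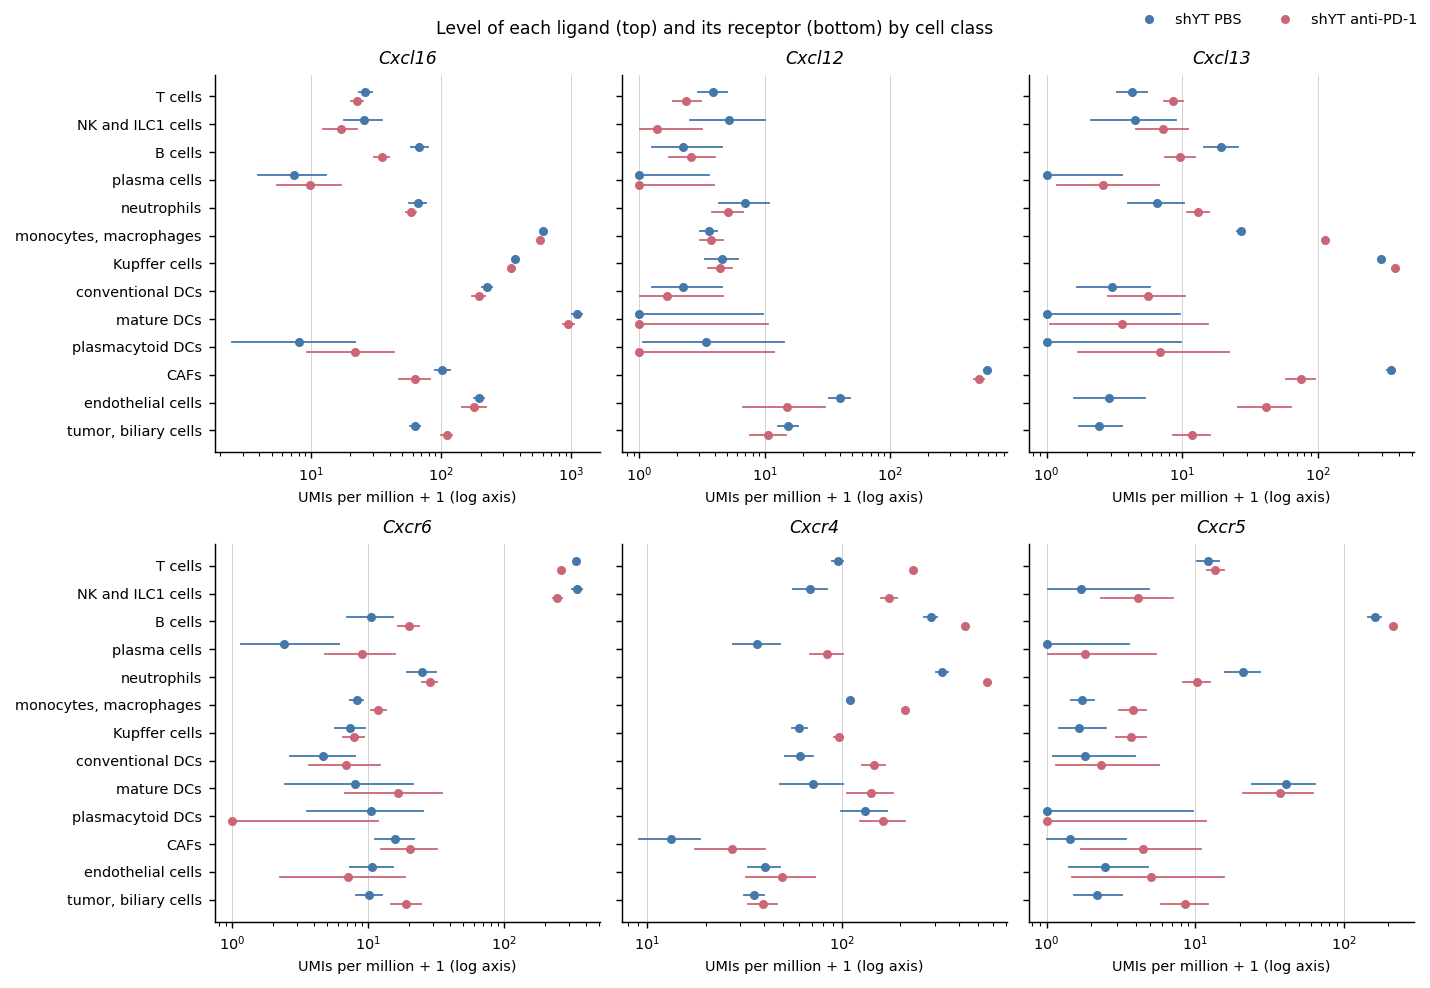
Level of each ligand (top row) and its receptor (bottom row) in 13 cell classes, in CPM plus 1 on a log axis; points are the class sum of 1 library (blue, shYT PBS; red, shYT anti–PD-1) and lines the 95% Poisson interval. Cxcl12 stands alone in CAFs (587 and 513), Cxcr6 in T cells and the NK/ILC1 class, and the red Cxcr4 points lie to the right of the blue ones in each class.

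*Cxcl16*, the ligand of CXCR6, was chiefly a macrophage transcript. Its CPM inside the macrophage classes differed little between the 2 libraries, while the share of monocytes and macrophages with a UMI was lower under anti–PD-1. Monocytes and macrophages held 76.5% of all *Cxcl16* UMIs under PBS and 57.5% under anti–PD-1, and Kupffer cells 10.8% and 28.0%. In monocytes and macrophages the level was 607 CPM under PBS (19972 UMIs in 4052 cells) and 569 under anti–PD-1 (10392 UMIs in 2494 cells), with a log2 ratio of -0.09 [-0.13 to -0.06]. With classes taken from clusters the ratio was 0.031, and after thinning to 1000 UMIs per cell it was -0.30. Neighbor classes were close to this, with 367 and 343 in Kupffer cells (-0.10 [-0.16 to -0.03]), 222 and 193 in conventional dendritic cells (-0.20 [-0.40 to 0.00]) and 1108 and 947 in mature dendritic cells (-0.23 [-0.43 to -0.03]). In each of these 3 classes the ratio lay above 0 in 1 of the alternatives tried. Mature dendritic cells are migratory, *Ccr7*-positive cells that carry antigen, and here they numbered 78 and 57. Thinned to 1000 UMIs per cell, 39.5% of PBS and 32.5% of anti–PD-1 monocytes and macrophages had a *Cxcl16* UMI (76.8% and 59.1% unthinned, at median depths of 7476.5 and 6171.5 UMIs), against 2.01% and 2.29% of T cells.

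The monocyte and macrophage class did not hold the same cells in both libraries. Of 2 clusters that held most of it, a cluster led by *Ms4a7* and *Trem2* had 2974 PBS cells and 143 anti–PD-1 cells of the class. A cluster led by *Ccl12*, *Saa3* and *Prg4* had 72 and 1180. *Cxcl16* stood at 695 and 679 CPM in the class's cells of the first and at 870 and 728 in those of the second. Both clusters were thus high in the ligand in both libraries. The partner genes of the 3 systems (scavenger receptors, sheddases and alternative ligands) had 1 of 7 tested past 2-fold in this class (2.75% of 14898 genes), the decoy receptor *Ackr3* (1.55 and 10.1 CPM, log2 ratio 1.20). The sheddase *Adam10* stood at 161 and 120 (-0.41).

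Tumor and biliary epithelial cells were the class in which *Cxcl16* was most clearly higher under anti–PD-1. The level was 61.3 CPM under PBS (468 UMIs, 1567 cells) and 109 under anti–PD-1 (359 UMIs, 976 cells), with a log2 ratio of 0.78 [0.59 to 0.96]. The share of cells with a UMI after thinning was 4.34% and 6.74% (14.7% and 17.2% unthinned, at median depths of 2314 and 1525.5). Myeloid RNA in the same cells moved with it, since the 10 monocyte and macrophage markers summed to 851 and 1081 CPM and the 6 Kupffer markers to 78.5 and 404. Cells of the class were split by any UMI of these markers or of the conventional and mature dendritic cell markers. In those with no such UMI the *Cxcl16* level was 36.9 and 216 (2.40 [1.22 to 3.52]). These values came from 12 UMIs in 185 PBS cells and 12 UMIs in 41 anti–PD-1 cells. In those with such a UMI the level was 62.4 and 107 (0.73 [0.54 to 0.92]). The class was also made of different clusters. A cluster led by globin genes (*Hbb-bs* and others) and by *Gp2*, with no marker of the class among its 10 leading genes, had 285 and 650 cells of the class, in which *Cxcl16* stood at 71.3 and 80.3 CPM. A cluster led by *Vtn* and *Cdkn1c* had 994 and 175, with 39.02 and 101 CPM. Another, led by the pancreatic enzyme genes *Ctrb1* and *Try5*, had 209 and 109 cells of the class and held 122 and 90 of its *Cxcl16* UMIs (107 and 184 CPM). Of 7 partner genes tested here, *Cd74*, the invariant chain of MHC class II and a receptor for MIF, was past 2-fold (1710 and 4414 CPM, 1.37), and *Ackr3* was lower (16.5 and 3.02, -1.42), against 4.58% of all genes past 2-fold. *Cxcl16* was lower in B cells (66.8 and 33.7, -0.89 [-1.17 to -0.61]) and in CAFs (101 and 61.8, -0.66 [-1.08 to -0.26]). Both directions turned without cells that held 2 or more markers of an unrelated class, to 0.092 [-0.69 to 0.87] and 0.96 [-0.22 to 2.01], intervals that span 0. In B cells, 6 PBS cells held 42.3% of the UMIs of that library. None of its 12 tested classes passed 2-fold, and 10 of 12 ratios were below 0. The median ratio of all genes was also below 0 in most classes. It was -0.08 in monocytes and macrophages, -0.10 in Kupffer cells and -0.12 in endothelial cells.

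*Cxcr6*, the receptor for CXCL16, belonged to T cells and to ILC1-like cells, and stood lower in T cells under anti–PD-1. T cells held 74.9% and 70.6% of its UMIs. Their level was 339 CPM under PBS (3794 UMIs, 3376 cells) and 260 under anti–PD-1 (4162 UMIs, 3567 cells), a log2 ratio of -0.38 [-0.44 to -0.31]. Among thinned T cells, 25.9% and 18.9% had a UMI, a difference of -6.96 percentage points [-8.95 to -4.97]. Unthinned shares were 43.9% and 37.4% at median depths of 2718.5 and 3615 UMIs. B cells, which should lack the receptor, had 0.716% and 1.08% after thinning (1.54% and 3.25% unthinned, median depths 1793.5 and 2542). The ratio in T cells was -0.17 when libraries were scaled by the median ratio of genes.

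By T cell subset, CD8 T cells had 361 CPM under PBS and 278 under anti–PD-1 (-0.37 [-0.47 to -0.27]), and γδ T cells 430 and 283 (-0.60 [-0.92 to -0.27]). T cells without a UMI of the subset genes had 477 and 321 (-0.57 [-0.68 to -0.45]). Conventional CD4 T cells had 245 and 258 (0.07 [-0.08 to 0.22]), an interval that spans 0. In regulatory T cells, the *Foxp3*-positive suppressor subset, the gene was low in both libraries, with 35.1 and 52.6 (0.52 [0.03 to 1.02]) and 3.42% and 3.57% of thinned cells with a UMI. Differences between the subsets were not tested.

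The composition of the T cells moved with *Cxcr6*. T cells with a UMI of *Ccr7* or *Lef1*, genes of naive and central memory T cells, were 39.6% of PBS and 52.1% of anti–PD-1 T cells (20.5% and 29.4% after thinning). This split was chosen after the values were seen. Among T cells without such a UMI, *Cxcr6* stood at 436 and 399 CPM (-0.12 [-0.20 to -0.05]), and 32.2% and 28.2% of thinned cells had a UMI. Among T cells with one it stood at 218 and 158 (-0.45 [-0.56 to -0.34]), with 16.5% and 10.6%. Differences between these groups of T cells were not tested. A T cell cluster led by *Lef1* and *Ccr7* had 108 PBS and 1174 anti–PD-1 cells with 45.5 and 35.4 CPM, and a cluster led by *Nkg7* and *Cd8b1*, with *Cxcr6* among its leading genes, had 586 and 474 in 439 and 1469 cells. A cluster led by *Tnfrsf4*, *Penk* and *Ctla4*, with the regulatory T cell gene *Foxp3* among its leading genes, went the other way, with 68.2 and 159 CPM from 183 and 561 UMIs in 573 and 752 cells. Most PBS T cells lay in another cluster, led by the globin gene *Hbb-bs*, a sign of red cell RNA, and by *Cxcr6* itself, with 404 and 230 in 2450 and 246 cells.

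*Cxcr6*-positive and *Cxcr6*-negative T cells were compared for the residency and tissue exit lists. Among T cells thinned to 1000 UMIs, those with a *Cxcr6* UMI were compared with those without (862 and 2466 PBS cells, 670 and 2867 anti–PD-1 cells). Of 10 residency genes, 6 were above in both libraries with intervals clear of 0, namely *Id2*, *Itga1*, *Prdm1*, *Rgs1*, *Xcl1* and *Zfp683*, against 2.88% of the 9339 genes tested in this comparison. *Itga1*, the collagen-binding CD49a integrin, stood at 95.1 against 49.1 CPM under PBS and at 106 against 41.2 under anti–PD-1. *Zfp683*, which encodes the residency factor HOBIT, stood at 24.4 against 8.92 and at 17.9 against 5.58. Genes of tissue exit went the other way, with *Klf2* and *S1pr1* below in both, 2 of 5, against 2.4% of all genes. *S1pr1*, the receptor that lets T cells leave tissue, stood at 26.7 against 76.2 under PBS and at 22.4 against 146 under anti–PD-1. Over all T cells, 1 of 10 residency genes was past 2-fold (1.88% of 13908 genes), the chemokine *Xcl1* (290 and 649 CPM, 1.15), while *Itgae* (57.1 and 31.0, -0.79), *Id2* (915 and 558, -0.71) and *Zfp683* (12.3 and 5.996, -0.66) stood lower.

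In the NK/ILC1 class *Cxcr6* stood higher in ILC1-like cells than in *Eomes*-positive NK cells. ILC1-like cells had no *Eomes* UMI and a UMI of *Itga1*, *Cd200r1*, *Il7r*, *Tmem176a* or *Tmem176b*. *Eomes* was detected in 20.3% and 27.4% of the class, so NK cells without a captured *Eomes* UMI can fall among them. The other cells of the class are left out of this comparison. ILC1-like cells, named after liver-resident ILC1s, had 455 CPM under PBS and 399.6 under anti–PD-1 (-0.18 [-0.36 to -0.00], beside a median of -0.13 over all genes tested there), with 32.9% and 28.4% of thinned cells positive. No member of 3 tested passed 2-fold in them, where 5.79% of 8774 genes did. *Eomes*-positive NK cells, the circulating kind, had 62.6 and 28.6 from 18 and 24 UMIs, with 1.94% and 1.61% of thinned cells positive. The ratio of -1.01 [-1.82 to -0.16] in *Eomes*-positive NK cells thus rests on few UMIs, and 3 of 3 members tested passed 2-fold in this subset, against 11.1% of 6844 genes. For the whole class the values were 344 and 246 (-0.48 [-0.65 to -0.31]). *Cxcr6*-positive cells of the class had less *Eomes* (8.62 against 182 CPM under PBS, 16.3 against 197 under anti–PD-1), with 2 of 7 residency genes above in both libraries, *Xcl1* and *Rgs1* (0.941% of 4249 genes), and 1 of 4 tissue exit regulators below, *Klf2* (1.06%). Of 9 residency genes tested in the class, 1 passed 2-fold (4.84% of all genes), the early activation and retention gene *Cd69* (121 and 304, 1.29).

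**Figure D3:**
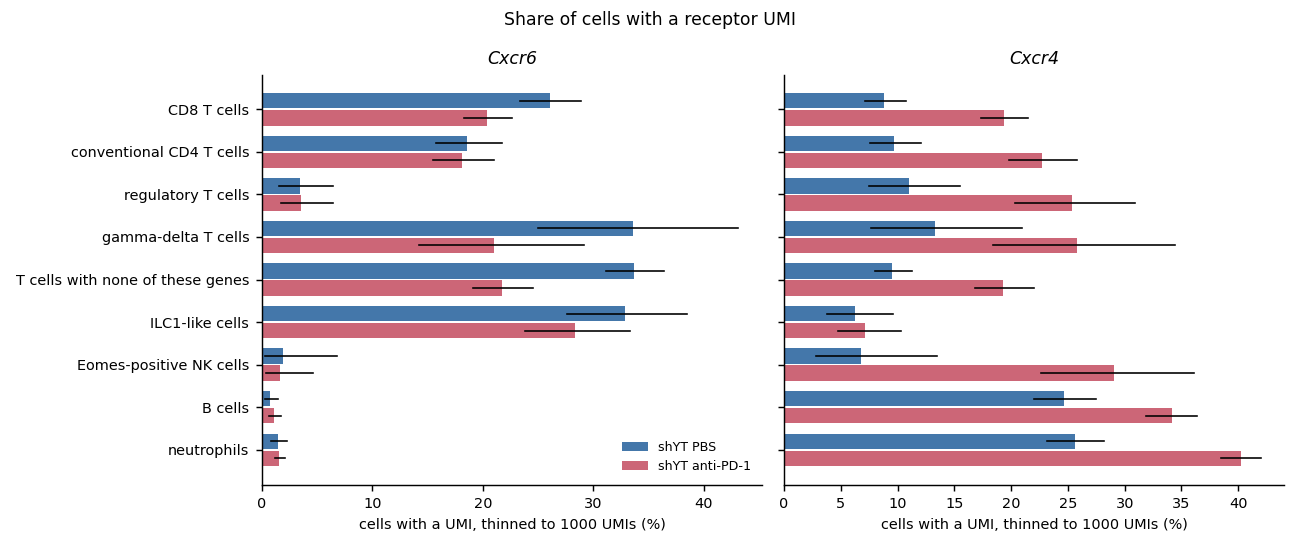
Percent of cells with a Cxcr6 (left) or Cxcr4 (right) UMI after every cell was thinned to 1000 UMIs, by T cell, NK/ILC1, B cell and neutrophil groups; bars show 1 library each (blue, shYT PBS; red, shYT anti–PD-1) and lines the 95% exact binomial interval. The Cxcr6 bars are high in T cell subsets other than regulatory T cells and in ILC1-like cells, with B cells at 0.716% and 1.08%, while the red Cxcr4 bars exceed the blue ones in each group shown.

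*Cxcl12*, the ligand of CXCR4, was a CAF gene, and its level per CAF differed little between the libraries. CAFs held 72.9% and 56.5% of its UMIs. The level was 587 CPM under PBS (1345 UMIs, 437 cells) and 513 under anti–PD-1 (448 UMIs, 165 cells), with a log2 ratio of -0.19 [-0.35 to -0.04]. After thinning, 27.5% and 23.3% of CAFs had a UMI (43.2% and 41.8% unthinned), against 0.391% and 0.0848% of T cells. CAFs with a *Lrat* or *Reln* UMI, genes of hepatic stellate cells, stood at 851 [787 to 919] under PBS (100 cells) and 652 [529 to 794] under anti–PD-1 (17 cells). The remaining CAFs stood at 456 [423 to 491] in 337 cells and 484 [435 to 538] in 148 cells. CAFs with such a UMI were above the rest under PBS, whereas the intervals overlapped narrowly under anti–PD-1, and those of the rest overlapped between libraries. The direction over all CAFs depended on the cells admitted, with -0.016 for CAFs taken from clusters, 0.14 after thinning, and 1.95 in the 126 and 21 CAFs that carried fewer than 2 markers of an unrelated class.

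Of 8 partner genes tested in CAFs, 3 passed 2-fold, against 6.49% of the 10779 genes tested there, and the ratios of all 8 were above 0. *Ackr3*, a scavenger receptor that clears CXCL12, stood at 105 and 240 CPM (1.16 [0.90 to 1.42]). *Dpp4*, a protease that inactivates CXCL12, stood at 15.7 and 52.7 (1.48 [0.93 to 2.01]). *Ackr4*, a scavenger of homeostatic CC chemokines, stood at 15.3 and 65.3 (1.79 [1.27 to 2.31]). The stress genes were higher in the same cells, with 13 of 14 past 2-fold and a median of 2.28, and their part in these values was not tested.

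Endothelial cells, a minor source, had 38.8 and 14.1 CPM of *Cxcl12* (-1.19 [-2.07 to -0.32]), from 104 UMIs in 534 cells and 7 UMIs in 103 cells. Without the upper limit on detected genes this ratio was 1.18, so its direction depends on the cells admitted. Together with *Cxcl13* it made 2 of 5 members past 2-fold in endothelial cells, against 8.47% of 10435 genes. Tumor and biliary cells had 14.3 and 9.68 (-0.39 [-0.79 to 0.01]), with a ratio above 0 in 2 of 11 alternatives. Of 7 classes tested, 6 ratios were below 0. The median ratio of all genes was also below 0 in them, from -0.26 in neutrophils to -0.01 in CAFs. In mesothelial cells, the lining of the liver surface, 16 UMIs in 50 PBS cells and 39 UMIs in 29 anti–PD-1 cells gave 36.9 and 179 CPM, too few cells for the count of classes.

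*Cxcr4*, the receptor for CXCL12, was higher under anti–PD-1 in all 13 classes, and it was the most general difference of the 6 genes. The log2 ratios ran from 0.14 in tumor and biliary cells to 1.30 in the NK/ILC1 class, and 10 of 13 intervals lay above 0. Under other cell filters and class rules the ratio stayed above 0 in T, NK/ILC1 and B cells, neutrophils, macrophages and conventional and plasmacytoid dendritic cells, but turned below 0 in 1 of 11 alternatives in CAFs (-1.74) and in plasma cells, 3 of 11 in endothelial cells, 2 of 11 in tumor and biliary cells and 1 of 10 in mature dendritic cells. Past 2-fold were T cells, where 1 of 6 members was called against 1.88% of 13908 genes, the NK/ILC1 class (1 of 4, 4.84%), plasma cells (1 of 2, 6.16%) and conventional dendritic cells (1 of 2, 5.67%). In conventional dendritic cells the ratio ran from 0.52 to 1.83 over 11 alternatives, so that call did not hold in all. T cells had 94.1 CPM under PBS (1054 UMIs) and 232 under anti–PD-1 (3722 UMIs), a log2 ratio of 1.26 [1.17 to 1.36]. The share of thinned T cells with a UMI was 9.59% and 20.8%.

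Each T cell subset was past 2-fold. *Cxcr4* was the 1 member called of 5 tested in CD8 T cells (2.65% of genes), of 5 in conventional CD4 T cells (3.7%), of 4 in regulatory T cells (4.95%), of 3 in γδ T cells (8.03%) and of 5 in T cells without a subset gene (3.54%). Conventional CD4 T cells had 79.7 and 256 CPM (1.62 [1.41 to 1.84]) and regulatory T cells 102 and 296 (1.49 [1.21 to 1.78]). CD8 T cells had 87.1 and 204 (1.18 [1.01 to 1.35]) and γδ T cells 127 and 270 (1.05 [0.58 to 1.55]). The difference was present in T cells with a *Ccr7* or *Lef1* UMI (1.22 [1.08 to 1.35]) and without one (1.31 [1.17 to 1.44]). Within the NK/ILC1 class, *Eomes*-positive NK cells had 101 and 283 CPM (1.45 [0.91 to 2.02]), with 6.80% and 29.0% of thinned cells positive. ILC1-like cells had 54.7 and 95.6 (0.75 [0.32 to 1.20]), with 6.25% and 7.16%, and the other cells of the class 82.7 and 225 (1.39 [0.67 to 2.18]). The intervals of the 3 ratios overlap, and the differences between the subsets were not tested. For the class as a whole the level was 67.9 and 175 (1.30 [1.00 to 1.61]).

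Neutrophils and B cells, the highest of the 13 classes, were higher by less than 2-fold. Neutrophils had 327 CPM under PBS (830 UMIs, 1311 cells) and 558 under anti–PD-1 (4528 UMIs, 3227 cells), with 0.76 [0.66 to 0.87] and with 25.6% and 40.2% of thinned cells positive (38.1% and 59.1% unthinned, median depths 1598 and 2102). Cells of 3 neutrophil clusters each had more, with 418 and 629 in a cluster led by *S100a9* and *Retnlg*, 358 and 490 in one led by the granule genes *Camp* and *Ngp*, and 218 and 489 in one led by *Slfn4* and *Acod1*. The granule-gene cluster held 1116 PBS but 38 anti–PD-1 cells, so the class was made of different clusters in the 2 libraries. B cells had 286 and 428 (0.58 [0.46 to 0.70]). No member passed 2-fold in either class, in which 5.72% of 11996 and 3.52% of 11562 genes did. Of the other CXC receptors in neutrophils, *Cxcr1* stood at 24.4 and 40.9 (0.64), *Cxcr2*, the receptor for neutrophil-attracting ligands that opposes CXCR4 in marrow egress, at 1847 and 1362 (-0.44), and *Cxcr3* at 18.1 and 13.8 (-0.30). *Cxcr2* is also among the markers that assigned cells to the neutrophil class.

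The other myeloid classes differed in their *Cxcr4* ratios. Monocytes and macrophages had 110 and 210 (0.91 [0.85 to 0.97]), conventional dendritic cells 59.7 and 145 (1.21 [0.92 to 1.50]), mature dendritic cells 70.1 and 140 (0.95 [0.33 to 1.59]) and Kupffer cells 59.5 and 95.5 (0.64 [0.50 to 0.78]). Plasmacytoid dendritic cells (130 and 162), endothelial cells (39.1 and 48.5) and tumor and biliary cells (34.5 and 38.4) had intervals that spanned 0. No member passed 2-fold in mature (3 tested, 11.6% of genes) or plasmacytoid dendritic cells (1 tested, 10.4%). Plasma cells had 35.7 and 82.7 (1.11 [0.66 to 1.56]). Only 7 and 1 plasma cells lacked 2 or more markers of an unrelated class, with 2 and 0 *Cxcr4* UMIs, and the fitted ratio there, -3.34, has no weight at that depth.

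**Figure D4:**
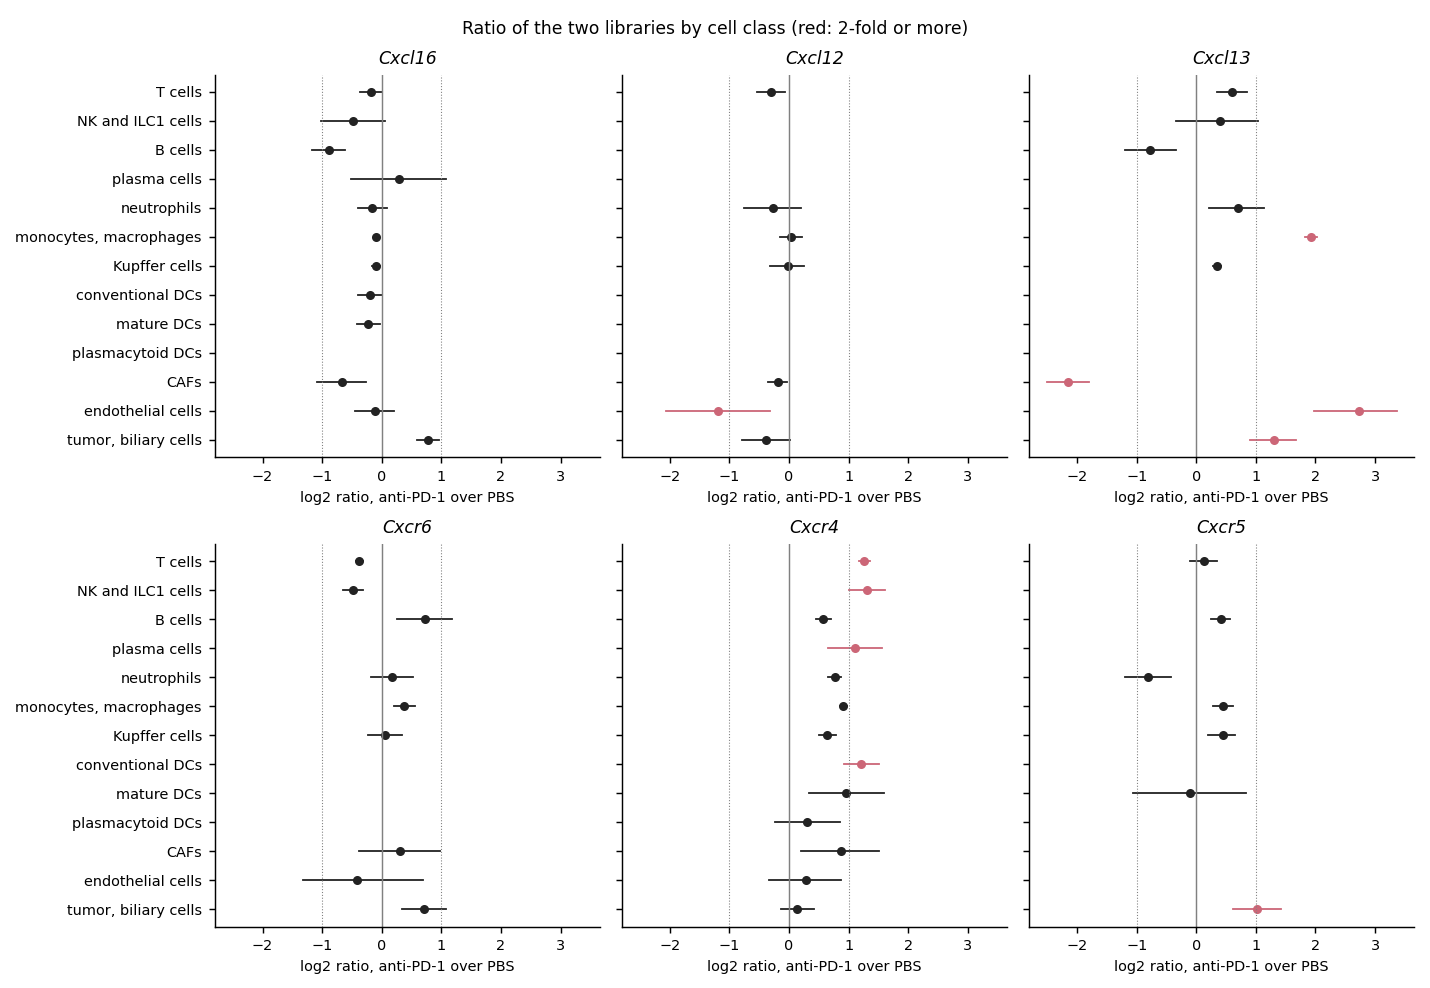
Log2 ratio of each gene (anti–PD-1 over PBS, 5 CPM added) in the classes with at least 20 UMIs over both libraries; points are ratios of 1 library to 1 library, lines 95% counting intervals, dotted lines 2-fold and red points ratios at or past it. The 13 Cxcr4 points lie between 0.14 and 1.30, whereas the Cxcl13 points spread from -2.15 to 2.73.

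Stress genes were higher in the same libraries and classes as *Cxcr4*. In T cells the ratios of 14 of 14 were above 0 and 5 passed 2-fold, against 1.88% of all genes, among them the immediate early genes *Nr4a1* (82.9 and 458 CPM, 2.40), *Atf3* (18.7 and 65.1, 1.57), *Fosb* (30.5 and 95.6, 1.50) and *Junb* (1090.5 and 2764, 1.34). Across the 13 classes the median stress ratio and the *Cxcr4* ratio had a Pearson r of -0.32, a description over classes that share the 2 libraries. Among cells at or under the PBS median share of stress UMIs, a subset chosen after the values were seen, the *Cxcr4* ratio was 1.18 in T cells (1688 and 387 cells) and 0.81 in neutrophils (656 and 911 cells). This kept 50% of PBS but 10.8% of anti–PD-1 T cells, and their stress shares still differed, with medians of 0.152% and 0.231%. The part of the stress genes in the *Cxcr4* ratios was not tested. In *Cxcr4*-positive against *Cxcr4*-negative thinned T cells, 2 of 14 stress genes were above in both libraries with intervals clear of 0, *Junb* and *Zfp36*, against 0.343% of 9339 genes, and 1 of 10 residency genes was below, *Xcl1*, against 0.278%.

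No gene of the lists of *Cxcr4* and tissue exit regulators and of receptor signaling passed 2-fold in T cells, where 1.88% of all genes did. The ratios of the 5 regulators were above 0, led by *Klf2*, a transcription factor of quiescence and recirculation (372 and 653 CPM, 0.80), and its target *S1pr1* (63.3 and 107, 0.71), then *Hif1a* (149 and 209, 0.48). Of 17 signaling genes 8 were above and 9 below 0, with *Rgs2*, a brake on G protein signaling, at 209 and 381 (0.85) and the arrestin *Arrb1* at 20.1 and 12.2 (-0.54). In neutrophils the same list leaned down, with 13 of 17 below 0, *Pik3cg* at 78.7 and 42.6 (-0.81), *Arrb2* at 391 and 224 (-0.79) and *Rgs1* at 183 and 310 (0.74). The median ratio of all genes was -0.13 in T cells and -0.26 in neutrophils, against which a list in these classes is to be read.

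*Cxcl13*, the ligand of CXCR5, came from few cells. In Kupffer cells the level was 292 CPM under PBS (2234 UMIs, 842 cells) and 374 under anti–PD-1 (5510 UMIs, 1610 cells), a log2 ratio of 0.35 [0.28 to 0.42]. Cells with 5 or more UMIs were 14.3% [11.96 to 16.8] and 14.8% [13.1 to 16.7] of Kupffer cells and held 84.6% and 89.7% of the UMIs. The *Cxcl13*-rich fraction of Kupffer cells was thus nearly the same size in the 2 libraries. No member passed 2-fold in Kupffer cells, where 1.7% of 13029 genes did.

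Rich Kupffer cells were deeper than those without a *Cxcl13* UMI, with medians of 11293.5 against 8133 UMIs under PBS and 11810 against 7784.5 under anti–PD-1. The Kupffer markers, *Clec4f* among them, assigned all these cells to the class, so their presence in rich cells is no check of identity. *Clec4f*, the Kupffer lectin, stood at 6606 CPM in cells with 5 or more *Cxcl13* UMIs and at 5892 in cells with none under PBS, and at 6279 and 4821 under anti–PD-1. The scavenger receptor *Marco* was higher in rich cells, at 2603 against 1253 under PBS and 2098 against 1244 under anti–PD-1. Of the other genes, chosen after their values were seen, *Prg4*, *Saa3*, *Serpinb2* and *Slpi* turned round between the libraries. *Alox15* was lower in rich cells of both, at 4.37 against 10.6 CPM under PBS and 2.10 against 39.9 under anti–PD-1. These *Alox15* values rest on 6 UMIs in the rich cells of each library. For *Gata6* the intervals spanned 0 in both libraries. *Prg4*, which encodes lubricin, stood at 118 in rich and 20.02 in negative cells under PBS, and at 5.24 and 89.3 under anti–PD-1. The acute phase gene *Saa3* stood at 944 and 55.9 under PBS and at 12.2 and 91.3 under anti–PD-1.

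In monocytes and macrophages *Cxcl13* was higher under anti–PD-1 and rested on fewer cells still. The level was 26.0 CPM under PBS (856 UMIs) and 113 under anti–PD-1 (2060 UMIs), a log2 ratio of 1.93 [1.82 to 2.03], the only member past 2-fold of 6 tested against 2.75% of 14898 genes. Cells with 5 or more UMIs were 13 of 4052 (0.321%) and 36 of 2494 (1.44%), and held 89.7% and 92.6% of the UMIs. The single highest cell held 364 of the PBS UMIs and 285 of the anti–PD-1 UMIs. Without these cells the level was 14.9 and 97.3 (2.36 [2.24 to 2.47]). Kupffer markers moved with it in this class, with 6 of 6 higher and a sum of 308 and 709 CPM, and their part in it was not tested.

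The rich monocytes and macrophages had more of most Kupffer markers in both libraries. They also had more *Prg4*, *Alox15*, *Saa3* and *Serpinb2*, which are among the leading genes of the *Ccl12*, *Saa3* and *Prg4* cluster. The other leading genes of that cluster were not compared. *Prg4* stood at 2854 CPM in rich and 15.9 in negative cells under PBS, and at 2018 and 225 under anti–PD-1. The lipoxygenase *Alox15* stood at 799 and 5.20 under PBS and at 880 and 125 under anti–PD-1. *Saa3* stood at 10359 and 82.7, and at 2028 and 390. *Serpinb2* stood at 88.7 and 2.69 under PBS and at 840 and 90.5 under anti–PD-1. *Gata6* stood at 29.6 and 4.39, and at 37.9 and 5.91, from 4 and 16 UMIs in rich cells. These genes were chosen after their values were seen. Of the 6 Kupffer markers, 5 were higher in rich cells under PBS and 6 under anti–PD-1, with intervals clear of 0, and *C6* had no UMI in the 13 rich PBS cells. *Cd5l*, a secreted macrophage protein, stood at 998 and 93.9 under PBS and at 913 and 264 under anti–PD-1, and *Clec4f* at 214 and 74.5 and at 487 and 207. The rich cells were also deeper, with medians of 9118 against 7469 and 9867.5 against 5962 UMIs, and the part of this depth and of the Kupffer markers was not tested. In rich Kupffer cells *Prg4* and *Saa3* were higher than in negative cells under PBS and lower under anti–PD-1, and the difference between the classes was not tested. Within that cluster *Cxcl13* stood at 409 CPM under PBS (386 UMIs, 90 cells) and 142 under anti–PD-1 (1838 UMIs, 1268 cells), but 364 of the PBS UMIs lay in 1 cell. Without the highest cell of each library the levels were 23.6 and 120.

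**Figure D5:**
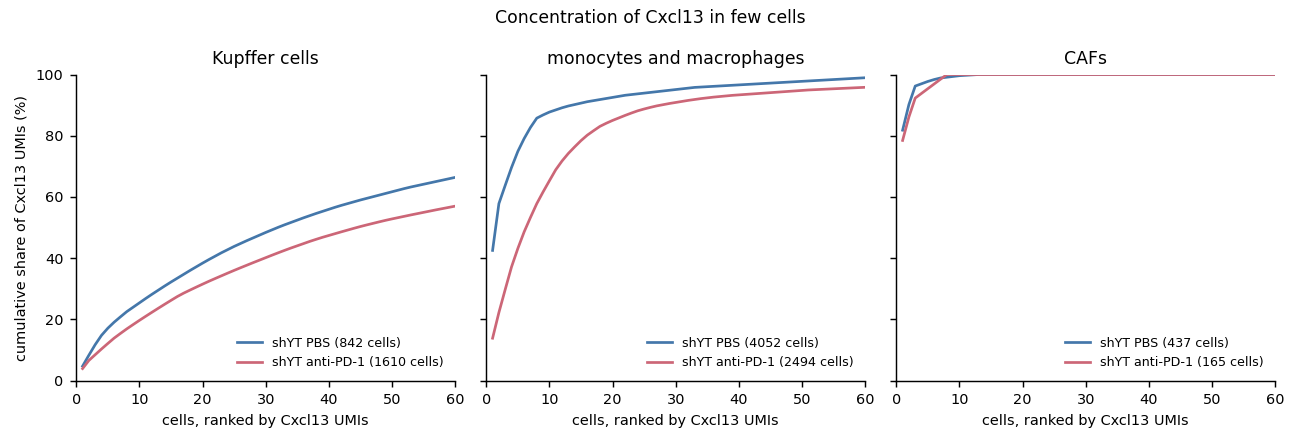
Cumulative percent of the Cxcl13 UMIs of a class (vertical axis) against the cells of the class ranked by their Cxcl13 UMIs (horizontal axis, first 60 cells), in the shYT PBS (blue) and shYT anti–PD-1 (red) libraries. The curve is gradual in Kupffer cells, steep in monocytes and macrophages, and in CAFs 1 cell holds 81.8% of the PBS UMIs.

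The CAF value of *Cxcl13* rested largely on a single cell. CAFs had 348 CPM under PBS (797 UMIs) and 74.4 under anti–PD-1 (65 UMIs), a log2 ratio of -2.15 [-2.51 to -1.81], the only one of 5 members tested past 2-fold, against 6.49% of 10779 genes. One cell held 652 of the 797 PBS UMIs and one held 51 of the 65 anti–PD-1 UMIs. Without them the level was 63.7 and 16.2 (-1.70 [-2.35 to -1.05]). The PBS cell was among those with the highest doublet scores, and without such cells the ratio was 0.66. In endothelial cells 18 of the 20 anti–PD-1 UMIs lay in 1 cell, and the ratio of 2.73 was 0.49 [-0.36 to 1.65] without the highest cells. Tumor and biliary cells had 11 and 36 UMIs, or 1.44 and 10.9 CPM (1.30 [0.90 to 1.68]), in cells where Kupffer markers stood at 78.5 and 404. With *Cxcr5* this made 2 of 6 members past 2-fold there, against 4.58% of 13436 genes. Over 11 alternatives each, the ratio ran from 0.11 to 2.28 for *Cxcl13* and from 0.80 to 1.97 for *Cxcr5*, so neither call held in all.

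Other CXC chemokines passed 2-fold in the same macrophage classes. In Kupffer cells 4 of 8 tested passed 2-fold, namely the interferon-induced *Cxcl10* (16.3 and 258 CPM, 3.62) and *Cxcl9* (49.5 and 219, 2.04), and the neutrophil-attracting *Cxcl1* (23.8 and 229, 3.02) and *Cxcl2* (293 and 1505, 2.34), against 1.7% of all genes. In monocytes and macrophages the same 4 of 8 tested passed, with *Cxcl1* at 10.2 and 381 (4.66), *Cxcl2* at 257 and 1988 (2.93), *Cxcl10* at 85.7 and 434 (2.27) and *Cxcl9* at 177 and 378 (1.07), against 2.75% of all genes. The stress median was 1.25 and 1.52 in these classes.

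*Cxcr5*, the receptor for CXCL13, was a B cell gene. B cells held 60.1% and 71.4% of its UMIs, and had 161 CPM under PBS (392 UMIs, 1040 cells) and 215 under anti–PD-1 (1232 UMIs, 1784 cells), with a log2 ratio of 0.41 [0.25 to 0.57]. Without cells that held 2 or more markers of an unrelated class the ratio was 0.13. After thinning, 15.8% and 18.3% of B cells had a UMI (27.5% and 39.8% unthinned), against 0.0255% and 0.274% of monocytes and macrophages. Over all cells the ratio was 0.38 at fixed shares and 0.74 at fixed levels, where the shares of all classes changed at once, and the part of B cells alone was not tested. T cells stood at 11.3 and 12.7 (0.12 [-0.11 to 0.35]), conventional CD4 T cells, which include follicular helper T cells, at 21.9 and 20.02 (-0.10 [-0.53 to 0.32]), and regulatory T cells at 24.3 and 19.2 (-0.27 [-0.89 to 0.35]). All 3 intervals span 0. Of 9 follicular helper genes tested in T cells none passed 2-fold, against 1.88% of all genes, with the costimulator *Icos* at 156 and 273 (0.79) and the transcription factors *Tox2* at 22.0 and 30.6 (0.40) and *Bcl6* at 19.8 and 26.2 (0.33).

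Mature dendritic cells had 39.7 and 36.4 CPM of *Cxcr5*, from 17 and 14 UMIs. Neutrophils had 20.1 and 9.24 (-0.82 [-1.21 to -0.42]), with 2.44% and 0.885% of thinned cells positive. Neutrophils with a *Cxcr5* UMI carried B cell RNA more often, since 10.8% of 37 PBS and 39.0% of 59 anti–PD-1 cells had a *Cd79a* or *Ms4a1* UMI against 2.51% and 8.996% of the others, at median depths of 1728 and 3220 against 1588 and 2092 UMIs. Tumor and biliary cells had 9 and 25 UMIs (1.18 and 7.56 CPM, 1.02 [0.61 to 1.42]), and the B cell markers there summed to 59.1 and 142. Their part in these values was not tested. The lymphotoxin and lymphoid tissue genes, which build follicles, gave 0 of 8 past 2-fold in B cells, against 3.52% of all genes, and all 8 were below 0 beside a median of -0.13 over all genes there, with *Ltb* at 637 and 385 (-0.72), *Tnfrsf11a* at 9.42 and 2.79 (-0.89), *Ccl21a* at 5.33 and 1.40 (-0.69) and *Ltbr* at 13.5 and 7.85 (-0.53). The anti–PD-1 levels of *Tnfrsf11a* and *Ccl21a* lie below the 5 CPM added to both sides, and whether their RNA came from other cells was not tested. In T cells *Lta* was lower by more than 2-fold (45.2 and 18.8, -1.08), 1 of 10 genes of the list, against 1.88% of all genes.

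The pattern of each gene over classes was set against 13682 genes in 29 sums of 16 classes and 2 libraries, as a description. Closest to *Cxcl16* were *Tnfrsf11a* (Pearson r 0.88), *Renbp* (0.87) and *Zmynd15* (0.87), the last of which overlaps it. *Cxcr6* was matched by *Ms4a4b* (0.98), *Gm2682* (0.97) and *Skap1* (0.96), and *Cxcl12* by the fibroblast genes *Ctsk* (0.96), *Abi3bp* (0.95) and *Mfap2* (0.94). For *Cxcr4* the closest were *Nfkbid* (0.89), *Stk17b* (0.88) and *Srgn* (0.87), for *Cxcl13* *Lpl* (0.90), *Pcolce2* (0.85) and *Dmpk* (0.84), and for *Cxcr5* *B3gnt5* (0.84), *Ms4a1* (0.82) and *Mif4gd* (0.82). Ligand and receptor were not positively correlated over these sums, with r of -0.35 for *Cxcl16* and *Cxcr6*, -0.63 for *Cxcl12* and *Cxcr4*, and -0.09 for *Cxcl13* and *Cxcr5*.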

How the data were processed

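Single cells of dissociated tumor-bearing liver were profiled with the GEXSCOPE kit, with 1 library per group. The deposited files hold UMI counts per gene and barcode, which the authors made with Singleron software on mm10, with no normalization. Barcodes were kept when 500 to 5000 genes were detected and mitochondrial transcripts made up no more than 10%. Each was put into the class with the highest share of its markers detected (at least 3 markers, ties unassigned). Counts were summed per class and library. Genes with at least 20 UMIs over both libraries were tested against the 2-fold threshold. Shares of cells with a UMI were computed after thinning to 1000 UMIs, with shallower cells left out. Counts of 0 were kept as 0 with an upper Poisson limit, and 5 CPM were added to both sides of a ratio. Intervals cover counting error only. Clusters (scanpy 1.11.5, leidenalg 0.10.2) were built without the 6 genes. The automatic doublet threshold marked 0 cells, so the highest 6% of scores (959 and 1002 cells) were left out as an alternative. Members and gene lists were chosen with earlier results of these data known, and 1 gene of the tissue exit list is not reported here. Named genes were the members, the 2-fold or largest ratios of each list, and the 3 genes of most similar class pattern; the T cell split by *Ccr7* and *Lef1*, the low-stress and highest-cell alternatives, and the genes set beside *Cxcl13*-rich cells were added after the values were seen. Calculations used python 3.11.15, numpy 2.4.6, scipy 1.17.1 and pandas 2.3.3, and were tested on simulated data. IDs were matched to GENCODE annotation for 32445 of 32589 genes.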

Additional observations from a re-analysis of the deposited data

Results flagged for a closer look

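*Cxcl13* was the one member with ratios past 2-fold in both directions. It was higher under anti–PD-1 in monocytes and macrophages (log2 ratio 1.93), endothelial cells (2.73) and tumor and biliary epithelial cells (1.30), and lower in CAFs (-2.15). With 1 library per group, the difference between these classes was not tested. In CAFs 1 PBS cell held 652 of 797 UMIs, and in endothelial cells 1 anti–PD-1 cell held 18 of 20. In tumor and biliary cells no cell held more than 2, but the ratio there ran from 0.11 to 2.28 over 11 alternatives. Kupffer markers were also higher in those cells under anti–PD-1.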

How the results depend on the processing

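No paired analysis was possible because each group had 1 library. Of 93 alternatives to the 8 leading results, 64 stayed within counting error and 89 kept the direction; of 613 for the other 56 results, 470 and 555 did. Over all cells, the *Cxcl13* ratio was 1.96 without cells holding 2 or more markers of an unrelated class, 1.25 without the highest doublet scores, 1.21 without an upper gene limit, 0.91 after thinning to 1000 UMIs, 1.04 with 1 CPM added, 1.20 with median-ratio scaling, 1.17 without the highest cell of each library and 0.71 without cells of 5 or more UMIs. For *Cxcr6* in T cells it was -0.46 without rival-marker cells, -0.47 thinned, -0.50 where Y-linked but no *Xist* UMIs were seen (Y-linked cells), -0.17 with median-ratio scaling and -0.12 without *Ccr7* or *Lef1* UMIs, and the share difference was -4.95 points when thinned to 500 UMIs and -4.00 in the last of these. *Cxcr4* gave 1.43 without rival-marker cells and 1.46 with median-ratio scaling in T cells, and 1.14 with that scaling in neutrophils. *Cxcr5* in B cells gave 0.13 and 0.58 in the same order. *Cxcl16* in monocytes and macrophages gave 0.031 from clusters, -0.18 without rival-marker cells, -0.13 without an upper gene limit, -0.30 thinned, -0.053 in Y-linked cells and 0.047 with median-ratio scaling. *Cxcl12* in CAFs gave -0.016 from clusters, 1.95 without rival-marker cells and 0.14 thinned. At least 1 alternative left the reported direction for 2 of the 8 and 33 of the 56 results. Of ratios past 2-fold, directions turned for *Cxcr4* in plasma cells without rival-marker cells (-3.34), for *Cxcl13* in CAFs without doublet scores (0.66) and in Y-linked cells (2.84), and for *Cxcl12* in endothelial cells without an upper gene limit (1.18). Turns among smaller ratios included those over all cells for *Cxcl12* without rival-marker cells (0.47) and for *Cxcr6* thinned (-0.25), and, without rival-marker cells, *Cxcl16* in CAFs (0.96) and B cells (0.092), *Cxcl12* in tumor and biliary cells (0.44) and *Cxcr5* in mature dendritic cells (0.14), the last from 8 and 3 UMIs. The cause was not tested, except that the 652-UMI cell was among the CAFs left out by doublet score. Over 12 alternatives each, *Cxcr4* stayed above 0 in T cells (1.18 to 1.46) and neutrophils (0.66 to 1.14). Depth limits *Cxcr5* outside B cells and *Cxcl12* outside stroma, and 1 library per group leaves the spread between animals unknown.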
